A study of Mus musculus with 6 samples.

Results

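The collagen genes of cultured beige, white and brown mouse adipocytes were examined through their open chromatin. Protein-coding genes of the mouse annotation whose symbol reads Col, a number, a and a number were taken, which gave 44 collagen genes among 21851 protein-coding genes. Each gene was described by its promoter peak, within 1 kb of an annotated start site, and by the further accessible regions inside the gene or within 50 kb of it. There were 1029 such further regions for the collagens among 133218 for all protein-coding genes.

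Collagens are built from chains wound into a triple helix, and each gene encodes a chain of its own. Fibrillar collagens such as types I, III and V form the tensile fibres of connective tissue, type IV forms the sheet of the basement membrane, and type VI forms beaded filaments between them. In adipose tissue every fat cell is wrapped in a basement membrane set in this matrix, and the matrix is made by fibroblast-like progenitors as well as by the fat cells.

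Assay for transposase-accessible chromatin with sequencing (ATAC-seq), in which a transposase cuts open DNA, was run on 6 libraries, 2 of each condition. All cells came from the stromal vascular fraction of wild-type male C57BL/6J mice aged 3 to 4 weeks and were differentiated for 7 days. Beige and white cells came from inguinal fat and brown cells from brown fat. The beige and brown cells received 5 μg/ml insulin, 5 μM dexamethasone, 0.5 mM IBMX, 1 nM T3 and 1 μM rosiglitazone, whereas the white cells received 5 μg/ml insulin, 1 μM dexamethasone and 0.5 mM IBMX, with the insulin doses taken from the deposited labels. The study's methods give other insulin doses, which differ between beige and white, so insulin may be a further difference between them. By their culture, beige and white thus differed in medium, beige and brown in depot, and for white against brown depot and medium cannot be told apart. The study does not describe the brown libraries, and nothing says whether they were processed together with the others. In every comparison with brown, a difference in processing could therefore not be told apart from these. The study describes the beige and white libraries as biological replicates, and the sources used here do not say whether they came from separate animals, nor how the brown libraries were replicated. In such bulk cultures fewer cells of a type and less open chromatin per cell cannot be told apart.

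The study reports fewer mapped reads for both beige libraries than for both white ones, and gives none for brown. The part of depth in the results was not tested. Each library was deposited as a list of 109143 to 127490 peaks without reads, so a fold enrichment holds only within its own list. A peak was therefore placed by its percentile, the share of the peaks of the same list with a lower fold enrichment. With 2 libraries against 2 the smallest two-sided p of an exact permutation test is 0.333, so conditions were set side by side and no test was made. An order between conditions was counted only where the percentiles of the libraries did not overlap, and its share is read against that of all genes or regions, hereafter the background. Among markers of cell types, 9 of 10 adipocyte genes had a promoter peak in all 6 libraries, as had 7 of 10 progenitor, 6 of 10 endothelial and 2 of 10 macrophage genes. Over all genes the share was 62.0%, so the progenitor and endothelial counts were near it. The part of these cell types in the results was not tested. Of 6 brown and beige markers, Cidea, Lhx8 and Tmem26 had a peak in all 6 libraries, Tbx1 in 5, and Zic1 in both brown and 1 beige library. Ucp1, the uncoupling protein of heat-producing fat, had it in the 2 brown libraries only, low in both lists at the 9.12 and 4.22 percentile.

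Most collagen promoters were open in every condition, but the median percentile of their peaks was below that of promoter peaks of all genes. A promoter peak was present in all 6 libraries for 30 of the 44 collagens, or 68.2%, against 62.0% of all genes. The lists held 34 and 36 collagen promoters in beige, 34 and 32 in white and 35 and 34 in brown. No promoter peak was found in any library for 7 genes, or 15.9% against 28.6%. These were Col4a6 of the basement membrane, Col6a4, the cartilage collagens Col9a1, Col9a3 and Col10a1, and the minor collagens Col20a1 and Col28a1. A promoter present in both libraries of 1 or 2 conditions and absent from the rest was found for 0 collagens, against 1.03% of all genes. The presence of a collagen promoter peak thus did not separate the conditions in the lists as deposited.

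The remaining 7 genes had a promoter peak in 1 to 5 libraries. Col6a6, Col11a1 and Col24a1 lacked it in 1 library each, which was brown 2, white 2 and beige 1. Col8a2, a short-chain collagen of vessel and corneal membranes, had it in both beige libraries and white 1, and Col26a1 in both beige libraries and brown 1. Col7a1, the anchoring fibril of skin, had a peak in 3 libraries at or under the 22.3 percentile, and the epithelial Col17a1 had it in brown 2 alone.

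**Figure D1:**
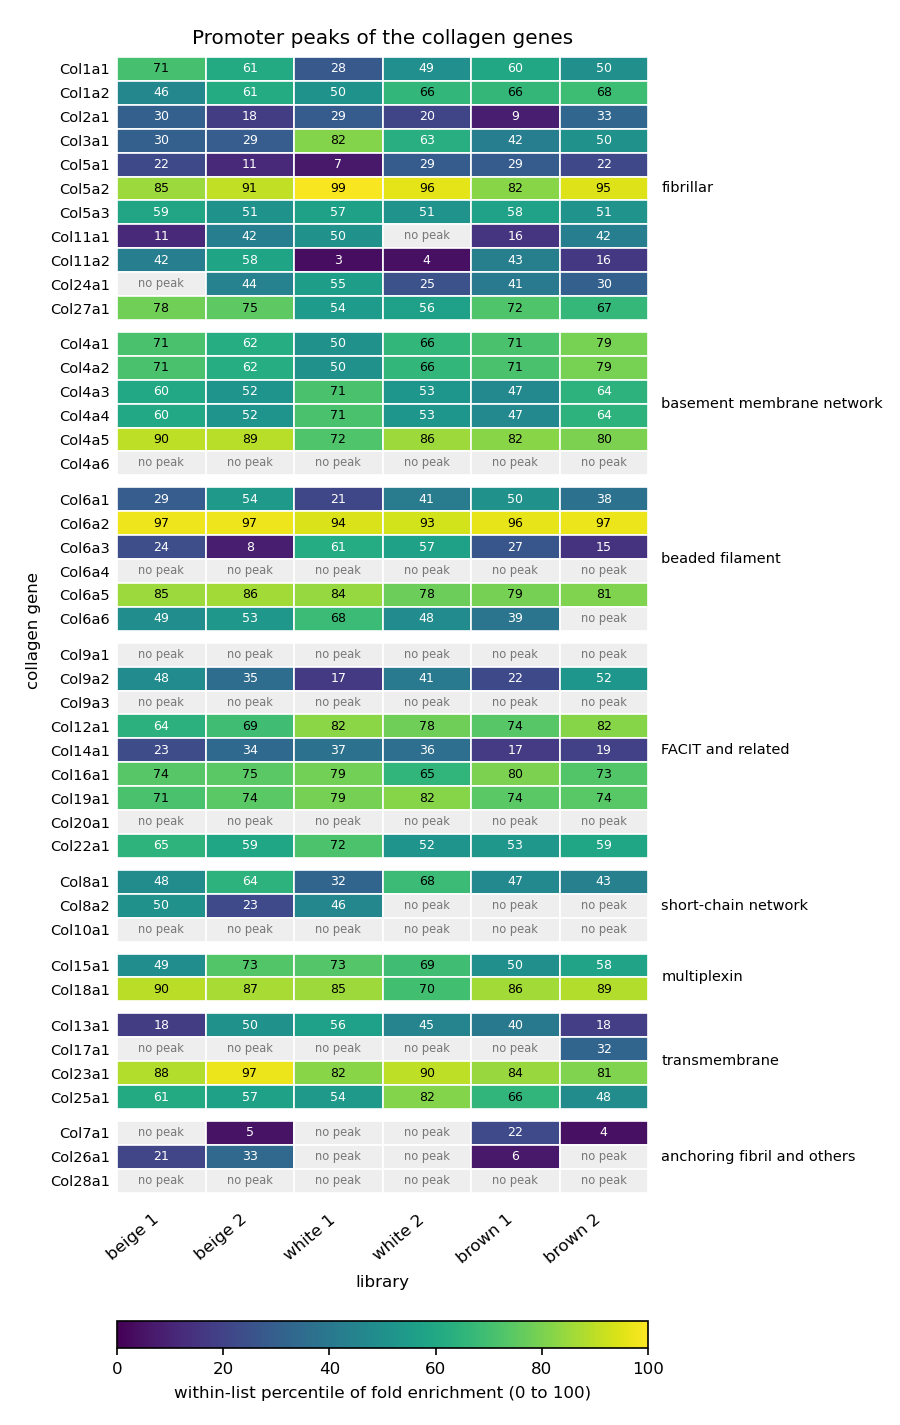
Within-list percentile (colour and number, 0 to 100) of the promoter peak of each of the 44 collagen genes (vertical axis, grouped by class) in each of the 6 libraries (horizontal axis), with grey cells where no peak was listed. The 7 genes without a peak fill whole grey bands, and Col6a2 stays at or above the 93.3 percentile in every library.

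Presence differed with the base composition of the start site. Promoters were called CpG rich where the 500 bp to each side of the start held at least 50% GC and an observed over expected CpG ratio of at least 0.6. Only 27.3% of collagens were CpG rich, against 45.7% of all genes. Among CpG-rich promoters the collagens were open in all 6 libraries for 10 of 12 genes, or 83.3%, with a background of 95.3%. Among CpG-poor promoters they were open for 20 of 32 genes, or 62.5%, with a background of 34.0%. CpG-poor collagen promoters were therefore listed more often than other CpG-poor promoters, and this was described without a test.

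The median percentile of the 30 collagen promoters was 60.4 and 60.8 in beige, 59.3 and 64.0 in white and 58.6 and 61.8 in brown. Over all genes with a promoter peak in all 6 libraries the medians were 89.2 and 87.9, 88.7 and 85.8, and 89.4 and 90.8. The collagen median was thus below that of all genes in each of the 6 lists, while the collagen medians of the 3 conditions overlapped. CpG-rich collagens had medians of 54.1 to 68.4 over the 6 libraries, against 87.0 to 92.6 for CpG-rich genes. CpG-poor collagens had medians of 55.4 to 71.1, against 81.7 to 83.6. The lower place of collagens was seen in both groups of promoters.

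By class, a peak in all 6 libraries was found for 9 of 11 fibrillar, 5 of 6 basement membrane, 4 of 6 beaded filament, 6 of 9 fibril-associated (FACIT), 2 of 2 multiplexin, 3 of 4 transmembrane, 1 of 3 short-chain and 0 of 3 anchoring and other genes. The percentile varied widely within a class. Among the fibrillar genes the mean over the 6 libraries ran from 19.8 for Col5a1 to 91.2 for Col5a2, which encode chains of the same type V molecule. Among the beaded filament genes it ran from 31.9 for Col6a3 to 96.0 for Col6a2, again chains of the same molecule. The 5 highest means were those of Col6a2, Col5a2, the transmembrane Col23a1 at 87.2, the endostatin precursor Col18a1 at 84.4 and Col4a5 at 83.3. The 5 lowest were those of Col5a1, the cartilage genes Col2a1 at 23.2 and Col11a2 at 27.9, the FACIT Col14a1 at 27.7, and Col6a3.

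Every pair of conditions had collagen promoters in both orders. Beige lay above white at 7 of the 30 collagen promoters, or 23.3%, with a background of 28.6%, and white lay above beige at 6, or 20%, with a background of 19.8%. Beige lay above brown at 8, or 26.7%, with a background of 17.3%, and brown lay above beige at 5, or 16.7%, with a background of 33.4%. White lay above brown at 7, or 23.3%, with a background of 14.9%, and brown lay above white at 8, or 26.7%, with a background of 34.9%. The counts depended on the ranking. With lists of equal length beige lay above brown at 3 promoters and brown above beige at 8, and when ranked by -log10 q brown lay above beige at 0 and above white at 3, and white lay above beige at 10.

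The spread between replicates was not small beside the differences between conditions. The median absolute difference of a collagen promoter percentile between the 2 libraries of a condition was 8.50 in beige, 13.2 in white and 7.83 in brown. Between condition means it was 8.60 for beige and white, 5.52 for beige and brown and 8.69 for white and brown. The former set single libraries against each other and the latter means of 2, so the sizes are not directly comparable. Each order was therefore also examined under q values under 0.01 and 0.00001, lists of equal length, ranking by -log10 q, and a distance of 250 bp to the start site. The distance of 250 bp drops peaks that lie further away, so an order carried by such peaks can be lost for that reason alone. All 5 settings kept 4 of the 7 orders of beige above white, 2 of the 8 of beige above brown, 4 of the 6 of white above beige, 4 of the 7 of white above brown, 0 of the 5 of brown above beige and 2 of the 8 of brown above white.

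**Figure D2:**
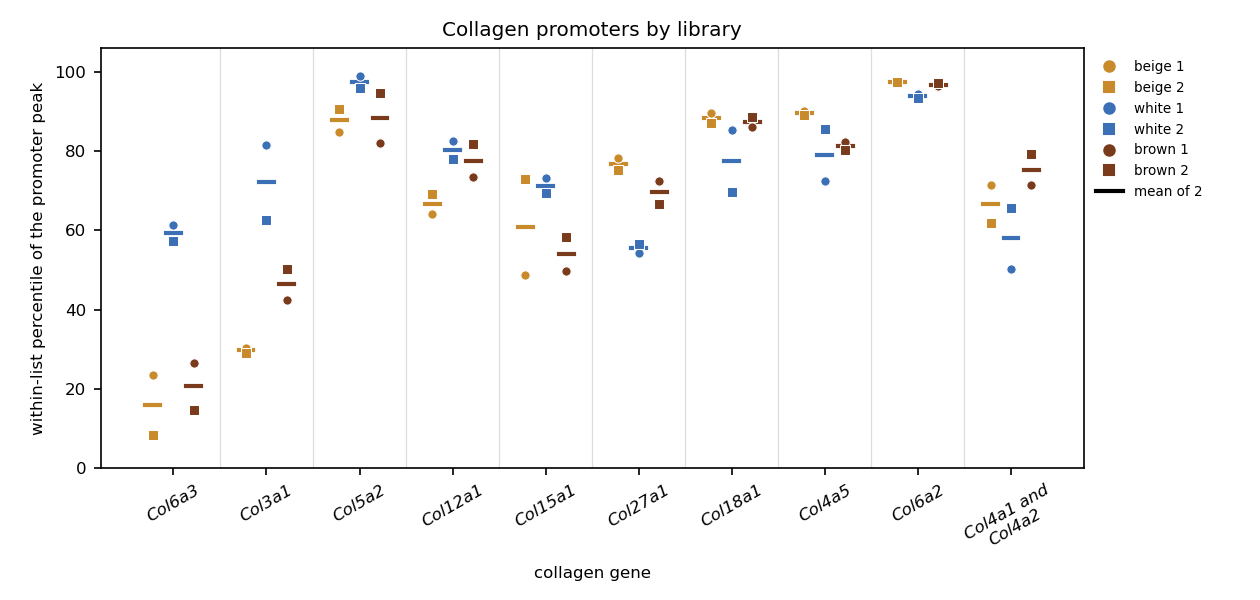
Within-list percentile of the promoter peak (vertical axis) in each library of beige, white and brown cells for the collagen genes with an order between conditions that all 5 settings kept, save Col6a5, with points for libraries and bars for the mean of 2. The white points of Col6a3 (57.2 and 61.4) and Col3a1 (62.7 and 81.5) lie above all others of the gene, and those of Col27a1 (54.3 and 56.5) below.

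Col3a1 (ENSMUSG00000026043.18, chr1:45311538-45349706) encodes the only chain of type III collagen, which is laid down beside type I. Its promoter peak stood at the 30.3 and 29.1 percentile in beige, 81.5 and 62.7 in white and 42.5 and 50.2 in brown. Both white libraries were above the other 4, and brown was above beige. The mean difference was -42.4 for beige minus white and 25.8 for white minus brown. The order of white above both kept under all 5 settings, whereas that of brown above beige did not.

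Col5a2 (ENSMUSG00000026042.16, chr1:45374321-45503282) lies beside Col3a1 and is read from the other strand. It encodes the alpha 2 chain of type V collagen, which sits inside type I fibrils and limits their width. Its promoter peak stood at 84.9 and 90.6 in beige, 98.9 and 95.8 in white and 82.1 and 94.7 in brown, each as the percentile of the list. White was the highest in every setting, but the lower white library exceeded the higher brown library by little. Both neighbours thus had their highest promoter percentiles in white.

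The 200 bp before the annotated start, on the strand of the gene and in mm10, are shown for Col3a1 and Col5a2 because their peaks gave this shared order. Capitals mark letters of the motifs listed further on, a TATA box and a TEAD match in Col3a1 and none in Col5a2. The GC content of either stretch is 37.5%.
Col3a1 promoter, chr1:45311338-45311537, + strand: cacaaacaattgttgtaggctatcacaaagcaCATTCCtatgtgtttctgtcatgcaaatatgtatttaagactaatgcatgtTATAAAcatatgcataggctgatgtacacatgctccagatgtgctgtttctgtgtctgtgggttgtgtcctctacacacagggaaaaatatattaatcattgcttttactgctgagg
Col5a2 promoter, chr1:45503283-45503482, - strand: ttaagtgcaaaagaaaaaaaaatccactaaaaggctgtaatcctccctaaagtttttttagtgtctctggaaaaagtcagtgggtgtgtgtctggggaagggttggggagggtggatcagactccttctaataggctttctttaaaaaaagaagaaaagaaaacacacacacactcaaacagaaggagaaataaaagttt

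Type I collagen, the main fibre of connective tissue, is made of chains from Col1a1 and Col1a2. The strongest peak within 1 kb of the Col1a1 start stood at 70.6 and 60.6 in beige, 27.6 and 49.3 in white and 59.6 and 49.9 in brown, so that beige lay above white and above brown. These values came from different places. The peak at the start itself, with summits from -22 to +38 bp, stood at 24.5 and 10.5 in beige, 27.6 and 1.64 in white and 32.4 and 49.1 in brown. At the start the brown libraries were the highest, by less than the spread between replicates, and beige and white overlapped. A peak in the intron, at +973 to +980 bp, carried the order of beige over the rest, with 70.6 and 60.6 in beige, 49.3 in white 2, no peak in white 1, and 59.6 and 49.9 in brown. A further intron peak at +707 to +717 bp was listed in the 2 white libraries only, at 22.7 and 9.88. The orders of beige above white and brown were lost at a distance of 250 bp. Brown was also above white, an order that was kept at 250 bp but lost at a q value under 0.00001 and when ranked by -log10 q.

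At Col1a2 the strongest peak stood at 46.1 and 61.0 in beige, 50.4 and 66.0 in white and 66.3 and 68.5 in brown. Brown was above both by a narrow margin, and the order was not kept in all settings. At the start, with summits from +54 to +332 bp, the peak stood at 42.1 and 38.1 in beige, 50.4 and 27.5 in white and 60.5 and 68.5 in brown. In the intron, at +650 to +917 bp, it stood at 46.1 and 61.0, 48.0 and 66.0, and 66.3 and 61.1. Brown was therefore above the other 4 libraries at the start of Col1a2 and overlapped white in the intron.

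**Figure D3:**
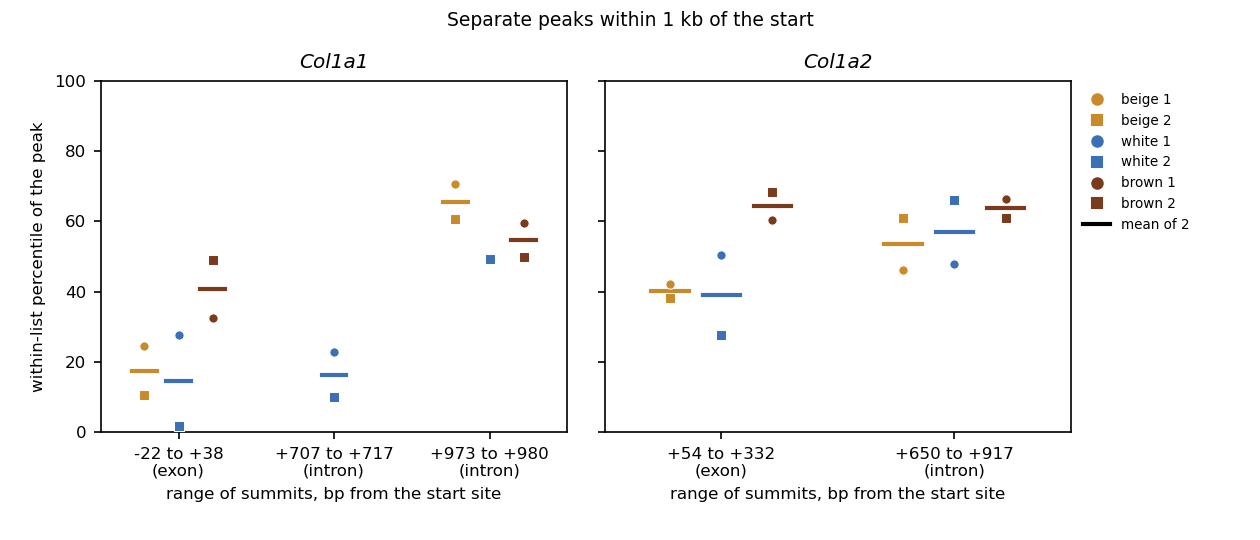
Within-list percentile (vertical axis) of the separate peaks within 1 kb of the start of Col1a1 (left) and Col1a2 (right), by the range of their summits in bp from the start (horizontal axis), with points for libraries and bars for the mean of 2. The peak at the start of each gene is highest in brown, whereas at Col1a1 the intron peak at +973 to +980 bp is highest in beige.

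The sequences before the annotated starts of both type I genes are shown because their peaks split in this way. Capitals mark CCAAT and GC boxes, on either strand. The Col1a2 stretch is shorter because the bases before it belong to an annotated transcript.
Col1a1 promoter, chr11:94936024-94936223, + strand: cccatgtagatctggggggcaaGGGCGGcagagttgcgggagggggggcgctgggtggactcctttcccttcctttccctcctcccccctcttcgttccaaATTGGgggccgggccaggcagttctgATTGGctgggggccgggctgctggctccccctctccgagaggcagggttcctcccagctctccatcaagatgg
Col1a2 promoter, chr6:4505370-4505492, + strand: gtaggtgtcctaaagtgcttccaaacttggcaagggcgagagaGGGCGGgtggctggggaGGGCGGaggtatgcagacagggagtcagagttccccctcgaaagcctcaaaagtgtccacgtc

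The other fibrillar genes follow. Col27a1, a fibrillar collagen best known from cartilage, stood at 78.3 and 75.2 in beige, 54.3 and 56.5 in white and 72.5 and 66.6 in brown. White was below the other 4 libraries, and the order of beige above white kept in all settings. Col5a1, the alpha 1 chain of type V, stood at 22.1 and 11.1 in beige, 6.53 and 28.7 in white and 28.7 and 21.6 in brown, with no order. Col5a3 stood between 50.9 and 58.8 in all 6 libraries, the narrowest range among the fibrillar genes. Col11a2, a chain of cartilage fibrils, stood at 42.2 and 58.5 in beige, 3.38 and 4.08 in white and 42.9 and 16.1 in brown. Outside white 2 its peak lay in the intron near +779 bp, and its orders of beige and brown above white were lost at a distance of 250 bp. Col2a1, the main cartilage collagen, stood between 8.56 and 33.0 without an order.

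Collagen VI, the beaded filament that is abundant around fat cells, showed opposite orders in its chains. Col6a3 (ENSMUSG00000048126.16, chr1:90765923-90843971), whose C-terminal fragment is released as endotrophin, stood at 23.5 and 8.30 in beige, 61.4 and 57.2 in white and 26.6 and 14.6 in brown. The white libraries were above the other 4 in every setting, with a mean difference of -43.4 for beige minus white and 38.7 for white minus brown. Col6a2, on chromosome 10, stood at 97.4 and 97.4 in beige, 94.3 and 93.3 in white and 96.3 and 97.2 in brown. Here white was the lowest, and the order of beige above white kept in every setting at a difference of 3.62. Col6a1, next to Col6a2, stood at 29.1 and 53.9 in beige, 21.1 and 41.3 in white and 50.2 and 37.5 in brown, with all conditions overlapping. Col6a5, a later-found chain, stood at 84.8 and 86.1 in beige, 84.3 and 77.7 in white and 79.1 and 80.8 in brown, and its order of beige above brown kept in every setting.

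The promoters of Col6a3, Col6a2 and Col27a1 are shown because white stood highest at the Col6a3 peak and lowest at the peaks of the other pair. None of the searched motifs was found in the Col6a3 stretch, whereas capitals mark a GC box in both others and a CEBP match in Col6a2.
Col6a3 promoter, chr1:90843972-90844171, - strand: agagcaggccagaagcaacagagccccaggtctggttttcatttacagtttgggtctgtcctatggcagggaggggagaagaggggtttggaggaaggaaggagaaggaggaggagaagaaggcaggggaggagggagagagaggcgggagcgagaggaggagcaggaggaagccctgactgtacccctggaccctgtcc
Col6a2 promoter, chr10:76623631-76623830, - strand: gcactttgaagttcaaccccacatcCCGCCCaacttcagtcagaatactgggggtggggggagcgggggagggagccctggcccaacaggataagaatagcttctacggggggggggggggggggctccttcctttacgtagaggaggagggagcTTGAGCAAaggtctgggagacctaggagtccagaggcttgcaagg
Col27a1 promoter, chr4:63215235-63215434, + strand: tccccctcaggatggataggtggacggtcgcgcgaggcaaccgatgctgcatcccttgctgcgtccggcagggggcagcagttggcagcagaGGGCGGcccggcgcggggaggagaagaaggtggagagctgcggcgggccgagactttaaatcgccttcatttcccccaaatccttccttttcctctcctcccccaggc

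Basement membrane collagens were led by Col4a5. Col4a1 and Col4a2, the chains of the common type IV molecule, start 21 bp apart on opposite strands of chromosome 8 and share 1 promoter peak. This peak stood at 71.3 and 61.8 in beige, 50.2 and 65.7 in white and 71.3 and 79.3 in brown. Brown was above white, with a mean difference of -17.4 for white minus brown, and this order kept in every setting. Since the peak is shared, the 2 genes count as 2 members but 1 measurement. The same holds for Col4a3 and Col4a4, chains of the kidney and lung membrane, whose starts lie 127 bp apart. Their shared strongest peak stood between 46.9 and 71.1 with no order. In beige 1 it lay at +245 bp of Col4a3, and in the other libraries between -150 and -129 bp. Col4a5, on the X chromosome, stood at 90.0 and 89.1 in beige, 72.5 and 85.5 in white and 82.3 and 80.3 in brown, and beige was above both others in every setting. Its neighbour Col4a6 had no promoter peak.

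The 20 bp between the starts of Col4a1 and Col4a2 are shown as the shortest stretch that serves both genes, and capitals mark its GC box.
Col4a1 and Col4a2 shared promoter, chr8:11312806-11312825, + strand: gtgcgcGGGCGGcgtctcca

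Among FACIT collagens, which sit on the surface of fibrils, Col12a1 stood at 64.0 and 69.2 in beige, 82.5 and 77.9 in white and 73.5 and 81.7 in brown. White and brown were both above beige, and the order of white above beige kept in every setting. Col14a1 stood at 22.9 and 33.9 in beige, 37.3 and 35.8 in white and 17.3 and 19.1 in brown, but its peaks lay over 250 bp from the start and the orders were lost at that distance. Col19a1 stood between 71.2 and 81.9, highest in white, but from different intron peaks. A peak at +867 to +917 bp gave the values of all libraries but white 2, whose 81.9 came from a peak at +511 bp. Col9a2, Col16a1 and Col22a1 gave no order.

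The multiplexins of the basement membrane zone moved apart. Col15a1 stood at 48.6 and 73.0 in beige, 73.1 and 69.3 in white and 49.8 and 58.2 in brown, and white was above brown in every setting while the beige libraries spread over both. Col18a1 stood at 89.5 and 87.1 in beige, 85.4 and 69.7 in white and 86.0 and 88.6 in brown, and beige was above white in every setting. Col18a1 has 2 separate start regions. The peak near +52536 bp of the outer start gave these values, while that at the outer start, from +4 to +29 bp, stood at 62.5 and 65.7 in beige, 59.1 and 62.5 in white and 65.6 and 68.3 in brown. The inner start was the stronger in all 6 lists.

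Transmembrane and short-chain collagens gave orders that not every setting kept. Col23a1 stood at 88.5 and 97.2 in beige, 82.3 and 89.9 in white and 84.4 and 80.7 in brown. Col13a1 stood at 17.7 and 50.3 in beige, 56.3 and 45.0 in white and 40.3 and 18.3 in brown. Col8a1 stood at 48.4 and 64.3 in beige, 32.4 and 68.2 in white and 47.2 and 43.1 in brown. Beige lay above brown for Col23a1 and Col8a1, and white above brown for Col13a1. The peaks behind these orders lay over 250 bp from the start in every library. The distance of 250 bp drops these peaks, so it cannot test the orders. The other 4 settings kept those of Col23a1 and Col13a1, whereas that of Col8a1 was also lost with lists of equal length.

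The further regions of collagens were dense and often ranked higher than the promoters. The median was 12.5 regions per 100 kb of collagen window against 8.58 over all genes, and 3.39 against 1.98 for those with a peak in all 6 libraries. Of the 1029 regions, 318 had a peak in all 6 libraries, or 30.9%, with a background of 27.2%, while 357 were listed in 1 library. The 318 lay in introns at 161, in exons at 7, upstream at 78 and downstream at 72. Windows overlap, so 80 of the 1029 fell into those of 2 or more collagen genes and 105 lay inside another gene. The most regions were found for Col4a2 with 59, Col4a1 with 54, Col5a1 with 48, Col25a1 with 43 and Col6a3 with 41. Col4a3 and Col10a1 had 0 with a peak in all 6 libraries.

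A further region stood above the promoter peak in all 6 libraries for 23 of the 30 collagens, or 76.7%, with a background of 26.5%. Among CpG-poor genes this was so for 15 of 20, or 75%, with a background of 34.6%. Collagens with a promoter peak in all 6 libraries had a median of 8.50 such regions in a window of 217.1 kb, against 4 in 125.4 kb over all genes, so they also had more regions to choose from. The region with the highest lowest percentile was in an intron of Col12a1 at +100970 bp, chr9:79617349-79617815, and stood at 96.5 and 98.2 in beige, 99.3 and 98.8 in white and 98.6 and 98.5 in brown. Next came a region at -16038 bp of Col5a3, chr9:20830608-20831319, at 98.8 and 99.2 in beige, 94.5 and 94.1 in white and 97.8 and 97.6 in brown. Col4a6, which lacked a promoter peak, had an intron region at 98.9 and 98.4 in beige, 99.2 and 94.9 in white and 99.2 and 89.1 in brown.

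**Figure D4:**
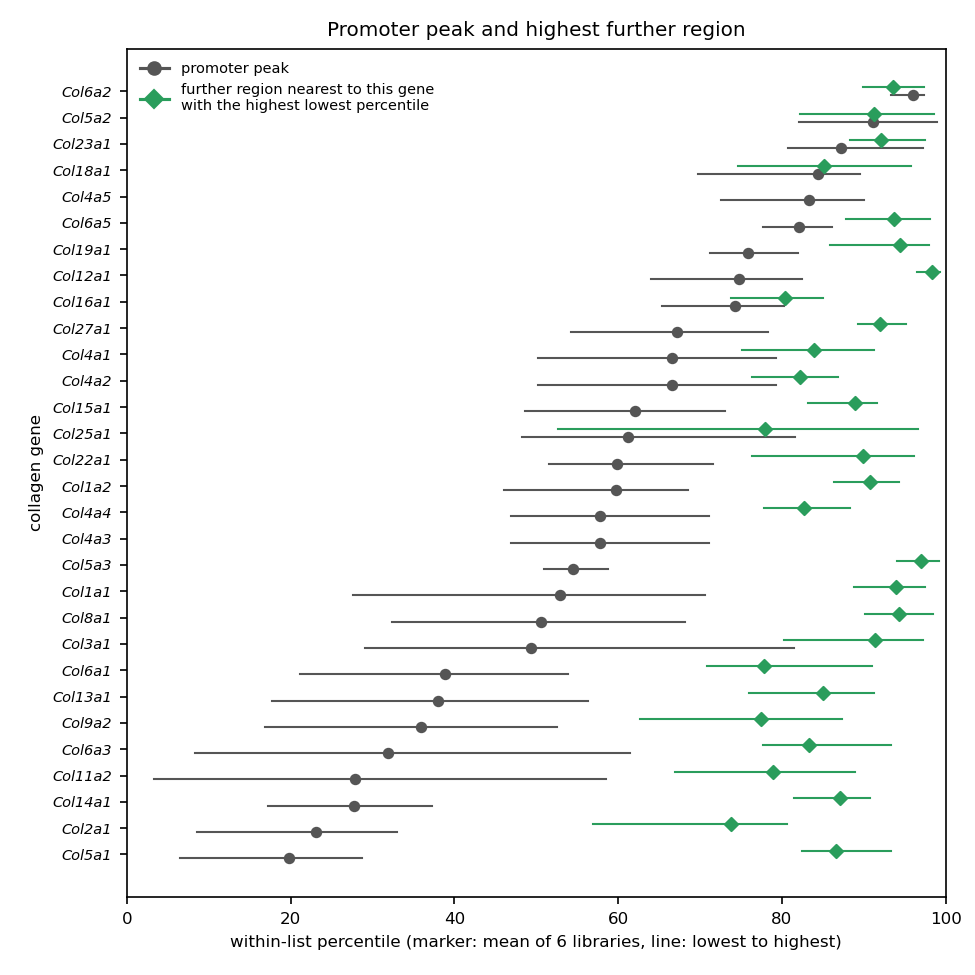
Mean within-list percentile over 6 libraries (horizontal axis, lines from lowest to highest) of the promoter peak (grey circles) and of the further region with the highest lowest percentile among those nearest to the gene (green diamonds, none for Col4a3 and Col4a5) for the 30 collagen genes with a promoter peak in all 6 libraries (vertical axis). The circles run from 19.8 for Col5a1 to 96.0 for Col6a2, and the diamonds lie at or right of most circles.

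Few further regions were listed in both libraries of some conditions and in none of the rest. Beige-only regions numbered 19, or 1.85% with a background of 2.21%, white-only regions 15, or 1.46% with a background of 1.27%, and brown-only regions 16, or 1.55% with a background of 0.899%. Regions of beige and brown without white numbered 10, or 0.972% with a background of 1.41%, those of beige and white without brown 10, or 0.972% with a background of 1.24%, and those of white and brown without beige 2, or 0.194% with a background of 0.241%. The shares were near the background, save that of brown-only regions, which was the higher. A -log10 q over 5 in every library with a peak was reached by 10, 6, 6, 3, 5 and 0 of them in the same order.

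Beige-only regions were led by one beyond the end of Col23a1, chr11:51617768-51617977, with a -log10 q of 22.9 and 32.7, followed by an intron region of Col4a6 with 12.2 and 15.1 and a region downstream of Col14a1, inside Mtbp, with 8.34 and 14.1. White-only regions were led by an intron region of Col14a1, chr15:55436552-55436793, with 10.8 and 13.2, followed by a region at -21347 bp of Col1a2 with 8.38 and 9.69 and an intron region of Col4a4 with 8.99 and 6.56. Brown-only regions were led by an intron region of Col27a1, chr4:63278868-63279151, with 12.0 and 12.2, followed by an exon region of Col12a1 at +3876 bp with 10.1 and 8.73 and an intron region of Col4a2 with 6.61 and 9.13. Each of these was absent from the 4 lists of the other conditions.

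Of the regions listed in 2 conditions, that of beige and brown with the highest lowest -log10 q lay in an intron of Col15a1, chr4:47242205-47242472, with 8.98 and 10.4 in beige and 6.42 and 9.99 in brown. It was followed by intron regions of Col4a2 and Col4a3. Among those of beige and white, a region downstream of Col6a1 had 7.26 and 16.5 in beige and 10.0 and 11.3 in white, and an intron region of Col26a1 had 7.96 and 8.02 in beige and 5.67 and 6.12 in white. No region of white and brown without beige passed a -log10 q of 5 in all its libraries.

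The 200 bp around the summit of the leading beige-only, white-only, brown-only and beige and brown regions are shown in mm10 on the + strand, because these are the places where a list held a collagen region that others lacked. Capitals mark a CCAAT box and an AP1 match in the Col14a1 region and a glucocorticoid receptor match in the Col15a1 region.
Col23a1, beige only, chr11:51617783-51617982: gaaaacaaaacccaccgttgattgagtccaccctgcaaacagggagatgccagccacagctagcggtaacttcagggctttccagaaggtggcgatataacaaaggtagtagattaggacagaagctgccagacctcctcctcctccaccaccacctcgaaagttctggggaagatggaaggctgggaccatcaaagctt
Col14a1, white only, chr15:55436543-55436742: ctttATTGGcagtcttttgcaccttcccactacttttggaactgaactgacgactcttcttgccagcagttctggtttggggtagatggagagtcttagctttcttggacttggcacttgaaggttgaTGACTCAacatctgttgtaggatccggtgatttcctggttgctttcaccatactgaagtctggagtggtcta
Col27a1, brown only, chr4:63278920-63279119: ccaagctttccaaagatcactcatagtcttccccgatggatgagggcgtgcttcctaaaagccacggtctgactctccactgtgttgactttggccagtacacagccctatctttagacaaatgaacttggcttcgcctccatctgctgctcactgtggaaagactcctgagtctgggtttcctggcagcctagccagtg
Col15a1, beige and brown, chr4:47242246-47242445: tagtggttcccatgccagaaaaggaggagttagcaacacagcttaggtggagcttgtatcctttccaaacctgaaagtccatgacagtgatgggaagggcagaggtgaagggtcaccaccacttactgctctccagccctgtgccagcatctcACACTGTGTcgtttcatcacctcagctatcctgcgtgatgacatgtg

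Orders between conditions at the 318 regions with a peak in all 6 libraries followed the background within a few percentage points. Beige lay above white at 87, or 27.4%, with a background of 26.6%, and white above beige at 72, or 22.6%, with a background of 21.3%. Beige lay above brown at 81, or 25.5%, with a background of 31.2%, and brown above beige at 86, or 27.0%, with a background of 21.2%. White lay above brown at 77, or 24.2%, with a background of 25.4%, and brown above white at 82, or 25.8%, with a background of 20.0%. The settings without the 250 bp distance, 4 in all, kept 59, 55, 56, 61, 55 and 46 of these orders in the sequence given.

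The loci differed from each other in their orders. The loci and orders given here were chosen after the counts were seen. At the type IV pair, brown was above beige at 10 of 16 regions of Col4a1 and 12 of 24 of Col4a2. The windows of this pair overlap, as do those of Col3a1 and Col5a2, so some regions were counted for both genes of a pair. At Col3a1, white was above beige at 6 of 9 regions and brown above beige at 5, and its promoter had both orders. At Col14a1, white was above brown at 8 of 17 regions and brown above white at 0. At Col1a1, beige was above white at 6 of 13, and at Col5a3 beige was above white at 6 of 13. The background was 21.2% for brown above beige, 21.3% for white above beige and 26.6% for beige above white. It was 25.4% for white above brown and 20.0% for brown above white.

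The examples that follow were chosen after their values were seen and do not cover all wide differences. An intron region of Col5a2 at +12655 bp, chr1:45490446-45490799, stood at 31.2 and 32.4 in beige, 83.4 and 72.4 in white and 72.7 and 80.3 in brown, so that white and brown overlapped and beige lay far below. Both orders over beige were lost at a q value under 0.00001. Upstream of Col3a1, the region at -35351 bp stood at 75.9 and 82.1 in beige, 96.6 and 86.9 in white and 77.9 and 63.0 in brown. The region at -15157 bp stood at 67.7 and 52.8 in beige, 82.8 and 82.1 in white and 24.7 and 64.5 in brown. White was highest at both, whereas brown had the highest mean at the other upstream regions with a peak in all 6 libraries at -41885 bp (37.3 and 40.5 in beige, 68.2 and 61.2 in white, 76.7 and 65.4 in brown) and -11581 bp (62.1 and 58.4, 79.3 and 73.8, and 88.0 and 77.7). Closer to the start of Col3a1, at -2283 bp, the values were 29.2 and 54.6 in beige, 81.0 and 66.3 in white and 65.8 and 75.6 in brown, and only beige stood apart. The intron region at +2618 bp went the other way against white, with 70.5 and 56.8 in beige, 22.5 and 35.8 in white and 20.5 and 63.8 in brown, and there brown overlapped beige.

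**Figure D5:**
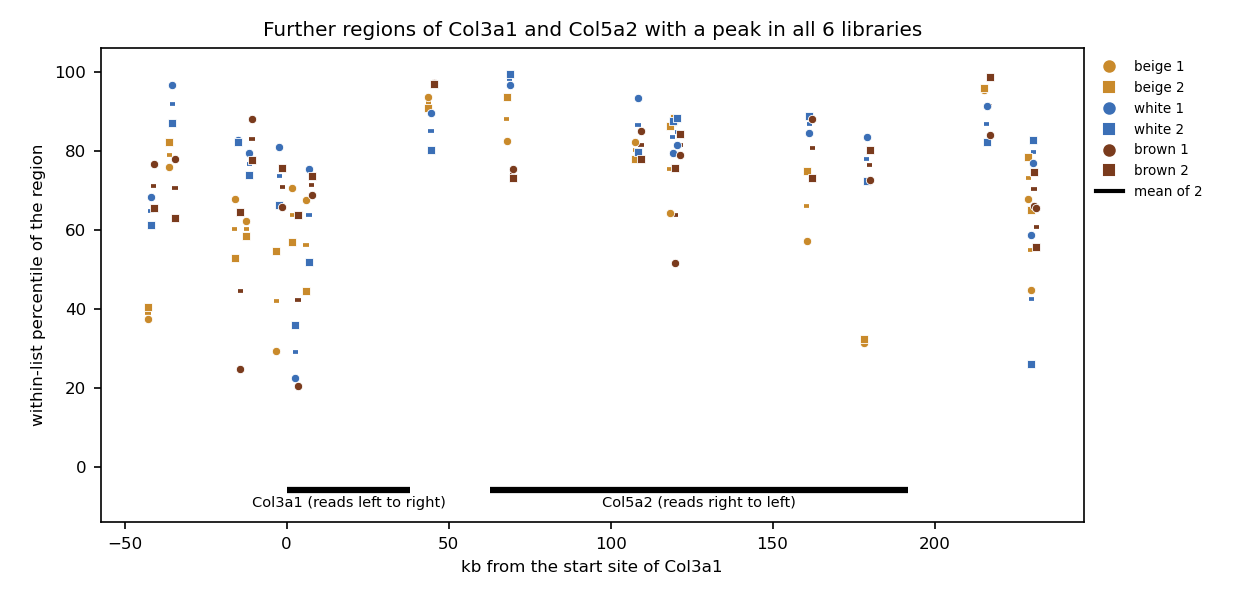
Within-list percentile (vertical axis) of the further regions of Col3a1 and Col5a2 with a peak in all 6 libraries, by distance in kb from the start of Col3a1 (horizontal axis), with points for libraries shifted sideways by condition, short bars for the mean of 2 and black bars for the genes. Beige lies lowest at the Col5a2 intron region near 180 kb (31.2 and 32.4), and white is highest at the region near -35 kb (96.6 and 86.9).

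The 200 bp around the summit of the Col5a2 intron region are shown because it had the widest gap between beige and the other conditions at this pair of genes, and no searched motif was found in it.
Col5a2 intron region, chr1:45490528-45490727, + strand: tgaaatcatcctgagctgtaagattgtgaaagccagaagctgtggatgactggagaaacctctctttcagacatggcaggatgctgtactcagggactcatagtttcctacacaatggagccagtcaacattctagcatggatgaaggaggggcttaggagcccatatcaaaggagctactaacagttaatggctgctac

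Other collagens held regions with wide gaps. In an exon of Col6a3, at +64691 bp, a region stood at 72.1 and 80.2 in beige, 51.9 and 1.16 in white and 76.2 and 82.2 in brown, so that white was the lowest, unlike at the Col6a3 promoter, and its 2 libraries lay far apart. Both orders were kept in only 1 of the 4 settings, and were lost already at a q value under 0.01. At Col1a2 a region at -2164 bp stood at 7.91 and 19.0 in beige, 60.6 and 41.8 in white and 24.6 and 33.3 in brown, with all 3 conditions apart. Ranked by -log10 q, brown no longer lay above beige there. At Col5a3 a region at +58669 bp stood at 11.1 and 22.8 in beige, 67.2 and 59.1 in white and 10.6 and 0.436 in brown, whereas 1 at +93357 bp, inside Olfm2, stood at 66.0 and 67.2, 19.7 and 16.4, and 78.9 and 57.0. White was thus the highest at the former and the lowest at the latter. At a q value under 0.00001, of these orders only that of white above beige at the former was kept. An intron region of Col15a1 at -32231 bp from the nearest start stood at 79.9 and 80.6 in beige, 44.4 and 31.3 in white and 62.1 and 69.8 in brown. This is the reverse of the order of the Col15a1 promoter between white and brown.

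Brown led widely at regions of Col4a1 and Col27a1. At Col4a1 a region at +139360 bp stood at 30.4 and 40.3 in beige, 26.2 and 31.3 in white and 73.3 and 71.4 in brown. At Col27a1 a region at +144597 bp stood at 20.8 and 42.5 in beige, 24.5 and 12.8 in white and 64.9 and 70.3 in brown. Both brown libraries were far above the other 4 at each.

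Motifs were searched as letters on both strands, in the 250 bp before to 50 bp after each start. They were the CCAAT box (CCAAT), the GC box (GGGCGG), the TATA box (TATAAA), AP1 (TGANTCA), ETS (CAGGAAG or CCGGAAG), CEBP (TTGCNNAA), TEAD (GGAATG), RUNX (TGTGGT), the glucocorticoid receptor (ACANNNTGT) and the E-box (CANNTG). Matches of different motifs may overlap, and the E-box, being frequent, is not capitalised in the sequences. A GC box was present in 26 of the 44 collagen promoters, or 59.1% (95% Clopper-Pearson interval 43.2 to 73.7, counting error only), against 44.8% of all promoters. Around the strongest promoter summit, 100 bp to each side, a GC box was in 43.3% of the 30 collagens (25.5 to 62.6). The share was 61.9% of all genes with a promoter peak in all 6 libraries. The comparison thus turned, but both the window and the set of genes differ. In the window around the start, it was in 53.1% of CpG-poor collagen promoters (34.7 to 70.9) against 21.0% of all CpG-poor promoters. Among CpG-rich promoters it was in 75% of collagens (42.8 to 94.5) against 73.1% of all. ETS letters were in 3, or 6.82% (1.43 to 18.7), against 22.0%, and these were the promoters of Col4a4, Col6a1 and Col6a4. A CCAAT box was in 40.9% against 38.7%, a TATA box in 11.4% against 12.5%, and TEAD in 15.9% against 13.2%. AP1 was in 2.27% against 6.69%, CEBP in 6.82% against 10.3%, RUNX in 6.82% against 15.0%, the glucocorticoid receptor in 2.27% against 5.70% and the E-box in 54.5% against 69.4%.

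In the 200 bp around the strongest summit of the 318 further regions, AP1 was in 37.7% (32.4 to 43.3) against 31.8% of the regions of all genes, and TEAD in 22.6% (18.2 to 27.6) against 16.3%. The other motifs were closer, with the E-box in 72.3% against 68.6%, RUNX in 20.4% against 17.6% and ETS in 10.4% against 12.7%. A match describes letters only and is no evidence of a bound factor.

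Genes that modify, export, cut or bind collagen were set beside the collagens. Of 33 genes of collagen processing, 31 had a promoter peak in all 6 libraries. The share over all genes was 62.0%. The crosslinking oxidase Loxl2 had none, and P4ha3, a prolyl hydroxylase subunit, had a peak in 3 libraries. Of 20 genes of breakdown and receptors, 14 had a peak in all 6. The median of the mean percentile was 84.2 for hydroxylation, 86.7 for chaperone and export, 65.2 for propeptide removal, 74.5 for crosslinking, 61.3 for breakdown and 66.4 for receptors. The condition means of the median over all genes with a promoter peak in all 6 libraries were 87.2 to 90.1.

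Among the 31 processing promoters, brown lay above beige at 17 and above white at 11, white above beige at 8 and above brown at 6, and beige above white at 5 and above brown at 1. The background over all promoters was 33.4%, 34.9%, 19.8%, 14.9%, 28.6% and 17.3% in the same order. As shares of the 31, the count of 17 for brown above beige was well over it. That of 1 for beige above brown was well under it, and that of 11 for brown above white was near it. The differences were not tested. Among the 14 of breakdown and receptors the same counts were 4, 5, 5, 5, 5 and 0. These were taken by fold enrichment in the lists as deposited only. Serpinh1, the collagen-specific chaperone, stood at 44.5 and 38.9 in beige, 51.6 and 28.7 in white and 50.6 and 51.3 in brown. Lox, the main crosslinking oxidase, stood at 67.5 and 70.0 in beige, 89.5 and 66.2 in white and 88.1 and 88.3 in brown, so that brown lay above beige. Itga1, the alpha 1 integrin that binds collagen, stood at 86.2 and 86.6 in beige, 96.9 and 98.5 in white and 88.6 and 93.3 in brown. Its white libraries were the highest, the same order as that of Col3a1, Col5a2 and Col6a3.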

How the data were processed

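ATAC-seq libraries of cultured beige, white and brown adipocytes, 2 each, were grouped by their deposited labels. Per the labels and the study's methods, the authors aligned reads to mm10 with BWA, handled them with SAMtools and called peaks in each library with MACS2, keeping q values under 0.05. The deposited fold enrichment is a ratio of the summit over the local background of that library, and each summit also has a deposited -log10 q. The lists hold no reads, the study gives read numbers for the beige and white libraries only, and the number of peaks limits the precision.

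From these lists, intervals were counted at their strongest summit and ranked by fold enrichment within the list. Genes and start sites of basic protein-coding transcripts came from GENCODE M21. A promoter peak had its strongest summit within 1 kb of a start. Intervals of the 6 lists that overlapped by 1 bp were merged into regions, and those inside a gene or within 50 kb, over 1 kb from every start, were its further regions. Sequences were read from the RefSeq copy of the mm10 genome, and 95% Clopper-Pearson intervals cover counting error only. Python 3.11.15 with numpy 2.4.6, pandas 2.3.3, scipy 1.17.1, pysam 0.24.0 and matplotlib 3.10.9 was used, and the scripts were tested on simulated data.

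The text names the collagens of adipose matrix, those with the 5 highest, 5 lowest and 5 widest promoter values, those without a promoter peak, the 5 with the most regions and the 3 firmest regions of each kind. Further regions described as chosen after their values were seen fall outside this rule, and 1 region that it names is not reported here. The collagens, the gene lists and the motifs were chosen with earlier results of these data known. Alternatives were other q values, lists of equal length, ranking by -log10 q, other distances and start sites, other windows and overlaps, and leaving out each library. The distance of 250 bp was chosen after seeing the data.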

Additional observations from a re-analysis of the deposited data

How the results depend on the processing

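Of 124 values recomputed under alternatives, 32 moved, and of 78 with a library left out, 33 moved. A q value under 0.00001 gave 2 collagens with a promoter restricted to some conditions in place of 0, medians of 51.8, 51.1 and 50.7 in beige, white and brown, 6 regions of beige and brown without white and 0 of white and brown without beige. Lists of equal length gave 1 restricted promoter, medians of 55.6 in beige and 57.8 in white, 3 promoters with beige above brown and 8 with brown above beige. Ranking by -log10 q gave medians of 70.9, 73.3 and 67.5, 10 promoters with white above beige, 0 with brown above beige and 3 with brown above white. A distance of 3 kb left 4 collagens without a promoter peak and gave medians of 67.4, 68.7 and 68.4. A distance of 250 bp, chosen after seeing the data, gave 22 promoters in all 6 libraries, medians of 61.2, 65.1 and 64.3, and 4 promoters each with beige above brown and white above brown. Overlap of the interval by 1 bp gave medians of 60.1 in beige and 57.1 in brown, and start sites of all transcripts 60.9 in beige. Around promoter summits the CCAAT box was in 20%, and the TATA box and the glucocorticoid receptor letters in 0%. The causes were not tested.

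Leaving out a library gave 30 to 31 promoters in all libraries, 7 to 8 without a peak, 1 to 3 restricted, and medians of 60.3 to 60.6 in beige, 57.1 to 64.0 in white and 57.7 to 61.8 in brown. It gave 323 to 335 regions in all libraries, 23 to 86 beige-only, 18 to 103 white-only, 18 to 72 brown-only, 12 to 25 beige and brown, 14 to 26 beige and white and 4 to 9 white and brown regions. These last counts rise by construction, since fewer lists must hold or lack a peak. No paired analysis was possible because conditions were not tested and nothing in the labels ties libraries of the same number across conditions. Peak lists without reads limit every comparison to presence and rank.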
